A study of Mus musculus with 14 samples.

Results

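Cells of the embryonic mouse neocortex that carried a Fezf2 vector were compared with cells that carried a control vector, 48 h after the vector was delivered. The samples were the 4 arrays labelled Fezf2GFP and the 4 labelled CtrlGFP at that time, which are 8 of the 14 arrays of the series. The members were all probe sets paired with 1 gene symbol and above a log2 value of 4, called the dim level here, on at least 3 of the 14 arrays. These were 17407 of 45037 probe sets. For the gene counts, each symbol was represented by its brightest probe set (by mean level over the series), which gave 10295 tested genes of 18193.

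All groups came from CD1 embryos. At E14.5 (embryonic age in days), plasmid DNA of either the Fezf2GFP or the CtrlGFP expression construct (800 nl at 2 μg per μl) was placed in the lateral ventricle and driven into the ventricular lining by 5 pulses of 40 V and 50 ms. Electroporated cells were dissociated and purified by fluorescence-activated cell sorting after 24 h (3 arrays per vector) or 48 h (4 arrays per vector), and both vectors therefore share the surgery, the pulses and the sort. The promoter of the vectors, the number of embryos behind an array and whether arrays came from separate litters are not stated in the labels. The p-values therefore speak to the spread among these arrays, which may in part be technical.

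Fezf2 is a zinc finger transcription factor of deep-layer neurons of the cortex, and corticospinal neurons, whose axons run to the spinal cord, require it. Cortical neurons are born from radial glia in the ventricular zone, directly or through intermediate progenitors, and at the stage used here the progenitors mainly produce neurons of the upper layers, many of which send axons to the other hemisphere. The design text of the series presents forced expression of Fezf2 at this stage as a switch towards neurons that project out of the cortex, and the comparison asks which transcripts differ early after delivery. Each array measured a population, so that fewer cells of a type and less RNA per cell cannot be told apart.

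Across the tested genes the arrays of a group correlated at 0.942 to 0.985 with CtrlGFP and at 0.952 to 0.985 with Fezf2GFP, and arrays of different vectors at 0.910 to 0.977. Array medians lay between 3.26 and 3.45 over all 45037 probe sets, with the highest at CtrlGFP replicate 2. Progenitor and newborn neuron transcripts were both abundant in the sorted cells: the mean level of 23 radial glia genes lay between 10.44 and 11.07 on the control arrays and between 10.80 and 11.50 on the Fezf2GFP arrays, and that of 21 genes of newborn excitatory neurons between 11.84 and 12.38 and between 12.29 and 12.50. Replicate numbers below refer to the 48 h arrays unless another time is given. Levels and fold changes are on the log2 scale of the deposited values, errors of fold changes are limma's standard errors (SE), p-values were adjusted in limma by the Benjamini-Hochberg method over the 10295 genes, and "passed", "rose" and "fell" mean an adjusted p under 0.05.

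Fezf2 itself was not higher in the arrays that bear its name. Its single probe set stood at 10.65, 9.63, 10.44 and 9.87 on CtrlGFP replicates 1 to 4 and at 10.25, 8.67, 8.93 and 9.48 on Fezf2GFP replicates 1 to 4. The groups overlapped, and 3 of the 4 Fezf2GFP arrays lay below every control array. Its value was -0.82 as a log2 fold change (SE 0.33, limma adjusted p = 0.239). At 24 h the probe set was lower with Fezf2GFP, at -1.86 (adjusted p = 0.0324). The sources used here do not say whether the vector holds the stretch of transcript that this probe set reads, so it checks nothing about the labels. Every direction given here rests on the labels alone, and the groups are the arrays labelled Fezf2GFP and the arrays labelled CtrlGFP throughout.

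In all, 322 of 10295 genes passed (3.13%). The arrays labelled Fezf2GFP were higher for 278 genes (2.7%) and lower for 44 (0.427%), so that rises outnumbered falls. The fitted values of rises were also larger. The median log2 fold change of rises was 1.34, with 201 above 1, 55 above 2 and 16 above 3. The median fall was -1.11, with 27 below -1, 8 below -2 and 1 below -3. Of the rises, 46 had control arrays below the dim level, so that their sizes rest in part on values without a firm order. Of the falls, 0 had a Fezf2GFP array below it. The smallest rise that passed was 0.51 and the smallest fall -0.56. Arrays of different vectors were free of overlap for 306 of the 322 genes (264 rises and 42 falls), against 9.07% of all genes tested (7.35% higher and 1.72% lower). Over all tested genes the median log2 fold change was 0.063, and 57.3% of the values were above 0. Fold changes rose with the span of the gene in the genome (Spearman's rho = 0.281 across genes, not across independent samples), and the median span was 60.0 kb for rises and 49.9 kb for falls against 25.3 kb for all. The part of span in the result was not tested beyond a fit with that trend removed, in which 281 genes passed, 232 higher and 49 lower. Without CtrlGFP replicate 4 the count was 188, without Fezf2GFP replicate 4 it was 200, and without the control arrays with the highest medians (CtrlGFP replicate 2 and CtrlGFP 24 h replicate 1) it was 360, with 297 higher and 63 lower.

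**Figure D1:**
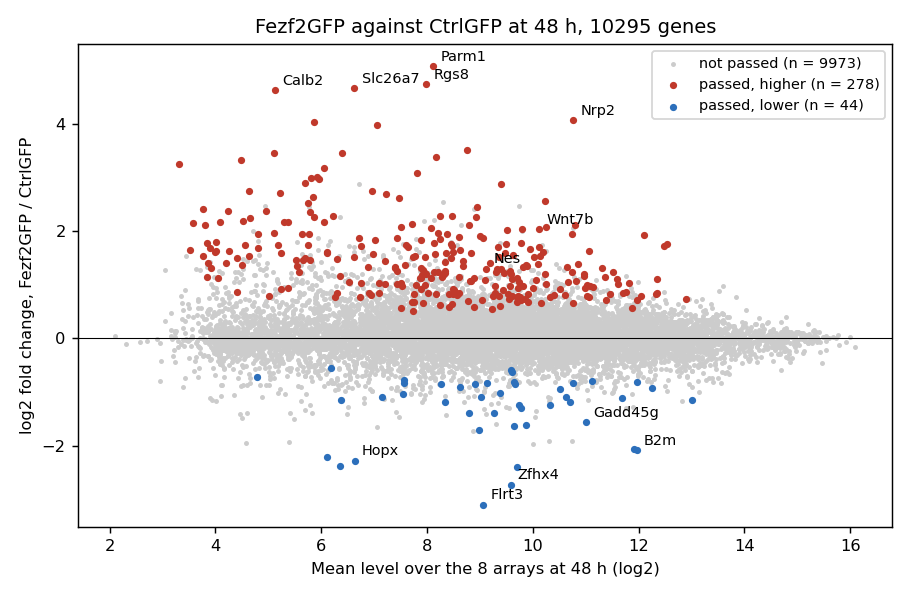
Log2 fold change (arrays labelled Fezf2GFP over CtrlGFP at 48 h, n = 4 each) against the mean level over the 8 arrays (log2) for 10295 genes; red points passed as higher (278), blue points as lower (44) and grey points did not pass. Rises reach 5.09 (Parm1), the largest fall is -3.11 (Flrt3), and only rises are found where the mean level is lowest.

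Parm1, a mucin-like membrane glycoprotein, showed the largest rise. It stood at 5.11, 6.02, 5.98 and 5.17 on CtrlGFP replicates 1 to 4 and at 10.66, 10.61, 10.56 and 10.80 on Fezf2GFP replicates 1 to 4. The Fezf2GFP arrays lay close together and far above every control array, which gave a difference of 5.09 on the log2 scale (SE 0.32, limma adjusted p = 7.45e-06). Its other measured probe set also passed in the same direction. Rgs8, which speeds the switching-off of G proteins, stood at 5.95, 5.08, 6.48 and 4.95 in the controls and at 10.50, 9.82, 10.56 and 10.54 in the Fezf2GFP arrays. The groups were again far apart, at a log2 fold change of 4.74 (SE 0.33, adjusted p = 7.62e-06).

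The promoter windows of Parm1, Rgs8 and Flrt3 are shown because these genes carry the largest rises and the largest fall (the levels of Flrt3 are given with the falls), and the rule for printing also took Slc26a7 and Zfhx4. Each window runs from 250 bases before to 50 bases after the gene's start in RefSeq (GRCm38.p6), is written 5′ to 3′ on the strand of the gene, and has each match to the E-box CANNTG in capitals. Parm1 lies on the plus strand at chr5:91517450-91517749, Rgs8 on the plus strand at chr1:153652787-153653086 (the first of 3 windows listed for it) and Flrt3 on the minus strand at chr2:140671427-140671726.
Parm1: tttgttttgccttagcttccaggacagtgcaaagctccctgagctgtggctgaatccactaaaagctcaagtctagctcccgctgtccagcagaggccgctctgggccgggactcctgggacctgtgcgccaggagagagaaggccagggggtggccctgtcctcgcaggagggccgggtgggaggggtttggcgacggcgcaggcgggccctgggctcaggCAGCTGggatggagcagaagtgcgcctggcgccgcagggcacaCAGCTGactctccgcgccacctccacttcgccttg
Rgs8: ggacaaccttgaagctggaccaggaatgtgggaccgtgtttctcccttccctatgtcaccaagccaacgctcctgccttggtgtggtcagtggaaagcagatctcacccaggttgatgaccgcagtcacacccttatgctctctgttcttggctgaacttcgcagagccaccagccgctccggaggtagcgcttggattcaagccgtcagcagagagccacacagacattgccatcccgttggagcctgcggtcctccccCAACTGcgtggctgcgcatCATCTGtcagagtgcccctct
Flrt3: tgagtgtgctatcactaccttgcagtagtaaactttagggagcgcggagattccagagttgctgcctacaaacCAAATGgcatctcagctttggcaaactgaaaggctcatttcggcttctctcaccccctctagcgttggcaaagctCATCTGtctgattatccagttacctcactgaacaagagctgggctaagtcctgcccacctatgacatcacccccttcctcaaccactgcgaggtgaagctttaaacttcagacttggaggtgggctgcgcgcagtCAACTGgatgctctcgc
The windows of Parm1 and Rgs8 hold 2 matches each to this E-box and that of Flrt3 holds 3, a motif found in 61.3% of 8412 windows of tested genes and in 72.1% of all 27025 windows. Further motifs were searched on both strands, as the E-box was, and match none of these 3 windows. The TATA box, spelled TATAAA, is found in 6.5% of the windows of tested genes and 14.2% of all windows. The box spelled CCAAT is found in 39.5% and 37.9%. The box spelled GGGCGG is found in 67.2% and 35.9%. The GC content is 66.0% for Parm1, 58.3% for Rgs8 and 51.3% for Flrt3, with 16, 12 and 8 CpG sites, and the medians over windows of tested genes are 61.7% and 22 sites. A match describes the letters and is not a binding site.

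Transporters, receptors and calcium-binding proteins were among the next largest rises. Slc26a7, a chloride and bicarbonate transporter, stood at 6.42, 2.92, 3.33 and 4.50 in the controls and at 8.84, 9.06, 8.15 and 9.82 in the Fezf2GFP arrays (4.67, SE 0.63, limma adjusted p = 0.00119). The control arrays spread widely, and those of replicates 2 and 3 were below the dim level, but none reached the Fezf2GFP arrays. Nrp2, a receptor for class 3 semaphorins that guides axons, stood at 9.60, 7.47, 9.66 and 8.16 and rose to 12.61, 12.67, 13.08 and 12.82 (4.07, SE 0.48, adjusted p = 0.000481). All 4 measured probe sets of Nrp2 passed in the same direction. Calb2, the calcium-binding protein calretinin, was below the dim level on every control array (3.46, 2.40, 2.93 and 2.41) and stood at 5.64, 8.13, 7.45 and 8.52 with Fezf2GFP. That is at least 10.8-fold higher, where the bound sets the Fezf2GFP mean against the dim level (adjusted p = 0.000332).

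Further large rises were found in genes of membranes, matrix and lipids. Elovl7, which lengthens fatty acids, had values from 2.93 to 4.42 in the controls and from 6.65 to 8.69 with Fezf2GFP (4.04, SE 0.41, limma adjusted p = 0.00017), and all 6 of its measured probe sets were higher, 3 of which passed. Its log2 fold change was 2.39 when the probe sets of a gene were averaged. Shisa6, an auxiliary protein of AMPA-type glutamate receptors, went from 3.91 to 6.08 in the controls to 8.29 to 9.66 (3.98, SE 0.39). Sulf2, which removes sulfate groups from heparan sulfate outside the cell, lay between 6.36 and 7.93 and between 9.78 and 11.05 (3.52, SE 0.43), with a log2 fold change of 2.05 over the mean of its probe sets. These 3 genes, like the other largest rises, were picked only among genes without overlap between the vectors, so the lack of overlap adds nothing. Hmcn1, a matrix protein, rose by 3.46 (SE 0.33), Slc39a8, a zinc importer, by 3.38 (SE 0.34), Caps2 by 3.19 (SE 0.22) and S1pr3, a receptor for sphingosine 1-phosphate, by 3.08 (SE 0.53). For S1pr3, CtrlGFP replicate 4 (4.54) lay well below the other controls (6.67 or higher), and the log2 fold change was 2.50 at the least over 20 alternative fits.

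**Figure D2:**
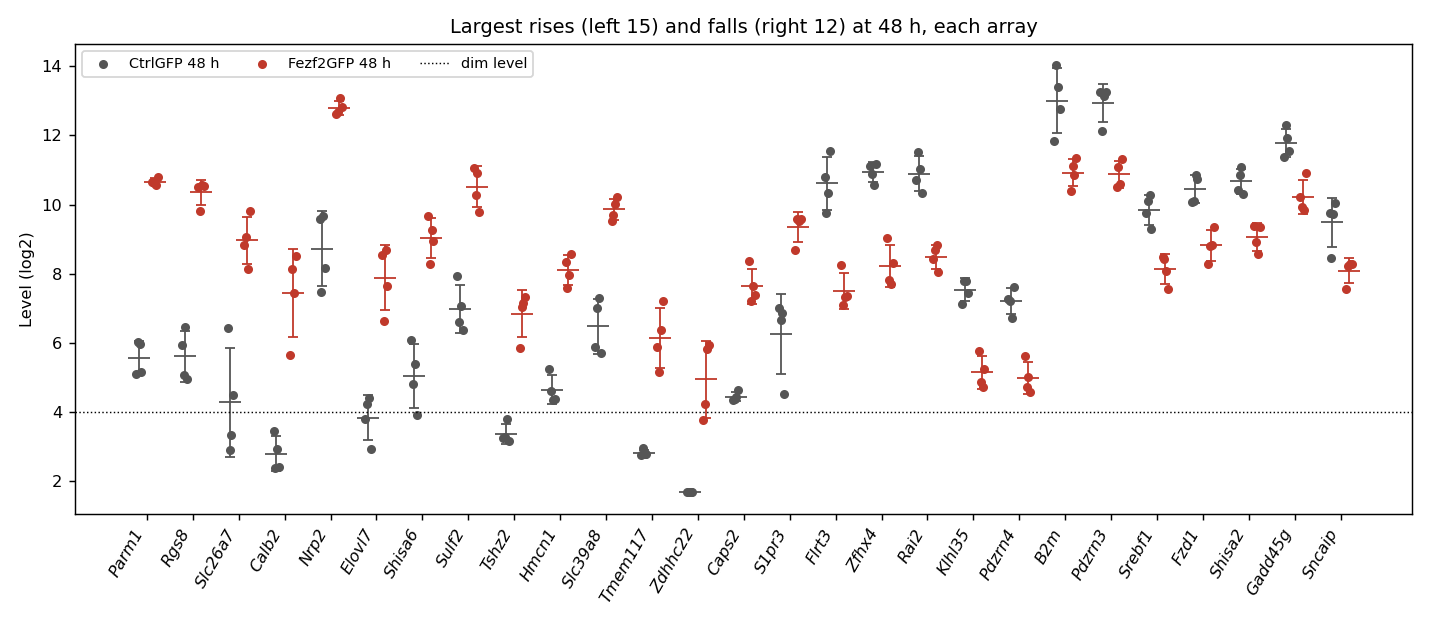
Level on each 48 h array (log2) for the 15 largest rises and 12 largest falls among genes that passed and whose vectors did not overlap; grey points are CtrlGFP and red points Fezf2GFP arrays, horizontal bars are means with SD (n = 4 each), and the dotted line is the dim level of 4. Several rising genes start at or below the dim level, whereas the falling genes lie above it on every array.

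Of the 278 rises, 21 had all 4 control arrays below the dim level, and for 12 of these every Fezf2GFP array was above it. Among all tested genes 18 had that pattern and 0 had the reverse. The 4 Fezf2GFP arrays at 48 h were enough for a gene to pass the filter on dim probe sets. Tmem117 and Cdhr1 entered the test through these arrays alone, so the pattern adds no support to their calls. Of the 44 falls, 0 had any Fezf2GFP array below the dim level. Beside Calb2, the genes of this kind with the largest rises were Tshz2, a zinc finger transcription factor (at least 7.20-fold), Tmem117 (at least 4.46-fold), Gsg1l, an AMPA receptor partner (at least 4.41-fold), and Hpgd, an enzyme of prostaglandin breakdown (at least 4.03-fold). Trim62 followed with at least 2.69-fold, Cdhr1, a cadherin-related membrane protein, with at least 2.27-fold and Afap1l2 with at least 2.12-fold. The bounds hold for the reported fit. Tshz2 lay between 3.17 and 3.81 in the controls and stood at 5.85, 7.05, 7.16 and 7.33 with Fezf2GFP, and Hpgd spread from 4.36 to 8.34 with Fezf2GFP. Zdhhc22, of a family of palmitoyltransferases, stood at 1.68 to 1.69 on the control arrays and at 3.77, 4.24, 5.81 and 5.95 with Fezf2GFP, so that 1 Fezf2GFP array was also below the dim level and the bound was 1.93-fold (limma adjusted p = 0.000484). Hpgd passed in 12 of 20 alternative fits (adjusted p from 0.00219 to 0.119). Its call ended without CtrlGFP replicate 1, 2, 3 or 4 or without Fezf2GFP replicate 2 (0.0507 to 0.0733). Afap1l2 passed in 14 of 19 (0.00589 to 0.0922) and not without CtrlGFP replicate 3 or 4 or Fezf2GFP replicate 4 (0.0547 to 0.0733).

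The falls were led by a guidance molecule and by transcriptional regulators. Flrt3, a membrane protein that binds Unc5 receptors and latrophilins in cell adhesion and axon guidance, stood at 10.80, 9.76, 10.35 and 11.56 in the controls and at 8.27, 7.09, 7.34 and 7.37 with Fezf2GFP. Every Fezf2GFP array was below every control array, a difference of -3.11 on the log2 scale (SE 0.36, limma adjusted p = 0.000459). Its other measured probe set fell too. Zfhx4, a zinc finger homeobox transcription factor, stood at 11.12, 10.89, 10.57 and 11.19 in the controls and at 9.04, 7.81, 7.71 and 8.30 with Fezf2GFP (-2.73, SE 0.37, adjusted p = 0.00112). Rai2 fell by 2.40 on the log2 scale (SE 0.27) and Klhl35 by 2.39 (SE 0.31). Lack of overlap was a condition for the choice of the 12 largest falls, as it was for the 15 largest rises.

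Pdzrn3 and Pdzrn4, which encode related proteins with PDZ and RING finger domains, fell together. Pdzrn4 lay between 6.72 and 7.63 in the controls and between 4.58 and 5.63 with Fezf2GFP (-2.22, SE 0.35, limma adjusted p = 0.00385), and Pdzrn3 between 12.12 and 13.25 and between 10.52 and 11.32 (-2.06, SE 0.34, adjusted p = 0.00483). Fzd1, a receptor for Wnt proteins, fell by 1.63 (SE 0.25), Shisa2, which holds back Wnt and FGF receptors in the endoplasmic reticulum, by 1.61 (SE 0.29) and Gadd45g, a growth arrest gene, by 1.57 (SE 0.25). Sncaip, which encodes synphilin-1, fell by 1.40 (SE 0.31, adjusted p = 0.0265). Sncaip passed in 10 of 20 alternative fits (adjusted p from 0.000613 to 0.108), and with 1 array left out it passed only without CtrlGFP replicate 2 or Fezf2GFP replicate 3 (0.0546 to 0.0907 otherwise). Bcl6, a transcriptional repressor that promotes neurogenesis, stood at 9.73, 10.33, 9.68 and 10.14 in the controls and at 8.85, 8.83, 8.71 and 7.89 with Fezf2GFP (-1.40, SE 0.27, adjusted p = 0.0139). Dab1, the adaptor inside the cell for reelin signals, stood at 11.51, 10.47, 10.57 and 11.24 and at 9.50, 9.99, 9.53 and 9.80 (-1.25, SE 0.28, adjusted p = 0.0275). Both were chosen after their values were seen, and neither showed overlap. Dab1 passed in 11 of 20 alternative fits (0.00605 to 0.0926) and not without CtrlGFP replicate 1 or 4 or Fezf2GFP replicate 1, 3 or 4 (0.0634 to 0.0926).

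Genes that distinguish cortical neuron subtypes had smaller values than the largest changes, and most did not pass. Of 12 subtype and cell type markers chosen by name, 10 could be tested. Slc17a7, a vesicular glutamate transporter, lay below the dim level at 2.83 to 3.11 over the 14 arrays, and 1 marker was not analysed here. Among the 10, Ephb1 alone passed. This ephrin receptor of axon guidance stood at 10.10, 9.16, 9.10 and 9.17 in the controls and at 10.83, 11.12, 11.11 and 10.95 with Fezf2GFP, with no overlap (1.62, SE 0.35, limma adjusted p = 0.0256). Ephb1 passed in 12 of 20 alternative fits (adjusted p from 0.0151 to 0.0804), and with 1 array left out only without CtrlGFP replicate 1 or Fezf2GFP replicate 1 (0.0627 to 0.0804 otherwise).

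Bcl11b, the transcription factor of subcerebral neurons also known as Ctip2, stood at 13.64, 12.87, 13.32 and 12.59 in the controls and at 14.04, 13.78, 14.29 and 14.21 with Fezf2GFP. The groups did not overlap, but the difference did not pass (0.97, SE 0.29, limma adjusted p = 0.0986), although 1 of its 4 measured probe sets passed and all 4 had the same sign. Crym, a crystallin enriched in corticospinal neurons, had levels of 6.86, 3.90, 5.46 and 4.90 and at 8.07, 8.24, 7.38 and 8.97. There was again no overlap and the value did not pass (2.88, SE 0.75, adjusted p = 0.057), with a wide spread among the controls. Cux2, an upper-layer transcription factor, stood at 13.63, 12.56, 13.01 and 12.93 and at 11.57, 12.29, 12.56 and 11.79. Its groups touched closely without overlapping (-0.98, SE 0.27, adjusted p = 0.0769). Eomes, the transcription factor of intermediate progenitors, had a value of 0.52 (adjusted p = 0.0949), Tbr1, of early-born deep-layer neurons, 0.78 (0.341), Pax6, of radial glia, 0.17 (0.902), the vesicular glutamate transporter Slc17a6 0.23 (0.623) and Gad1, an enzyme of GABA synthesis, 0.79 (0.73). The last 5 overlapped between the vectors. Among alternatives, Bcl11b passed with the mean of its probe sets (0.0293, over 0.0293 to 0.246 in 20 fits), Crym without CtrlGFP replicate 1 (0.0326, over 0.0326 to 0.16), Cux2 in 4 of 20 (0.0267 to 0.196) and Eomes in 2 of 20 (0.0338 to 0.423), among them the fit without Fezf2GFP replicate 1.

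**Figure D3:**
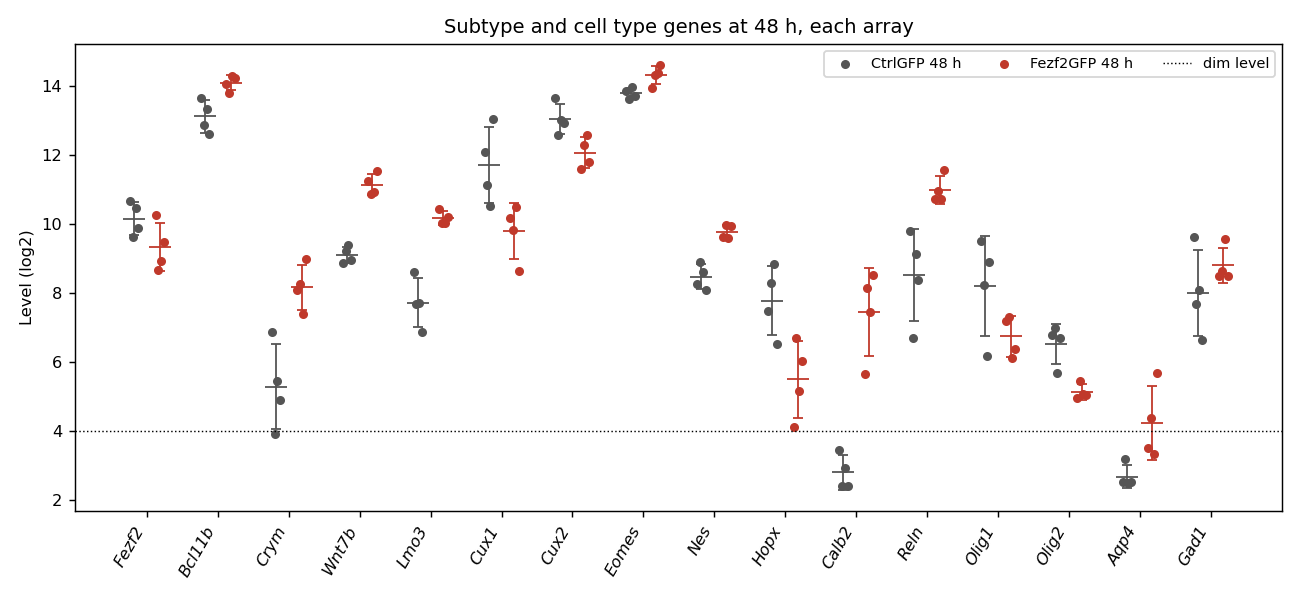
Level on each 48 h array (log2) for genes of neuron subtypes, progenitors and other cell types; grey points are CtrlGFP and red points Fezf2GFP arrays, bars are means with SD (n = 4 each) and the dotted line is the dim level of 4. Wnt7b, Lmo3, Nes and Calb2 passed as higher and Hopx as lower, and the other genes shown did not pass.

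The lists of deep-layer genes lay above the level of all genes, with few members past the threshold. For the counts of list members here and below, 2.7% of all genes passed as higher and 0.427% as lower. At an unadjusted p under 0.05 in limma were 15.2% of all genes. Of 14 tested corticospinal and subcerebral genes, 2 were higher and 0 lower, 11 had fold changes above 0, and the median was 0.70 against 0.063 over all genes. The members that passed were the adhesion molecule Cntn6 (1.46, SE 0.31, limma adjusted p = 0.0229) and Tmem163, a zinc transporter of membranes (1.33, SE 0.30, adjusted p = 0.0326). Cntn6 stood at 5.28, 5.39, 4.76 and 4.29 and at 6.18, 5.98, 6.78 and 6.63, without overlap. Tmem163 stood at 6.19, 5.91, 6.65 and 6.15 and at 7.59, 7.50, 6.74 and 8.36, and Fezf2GFP replicate 3 lay just above the highest control. Cntn6 passed in 12 of 20 alternative fits (adjusted p from 0.0158 to 0.0733) and not without CtrlGFP replicate 3 or 4 or Fezf2GFP replicate 3 or 4 (0.0644 to 0.0733). Tmem163 passed in 9 of 20 (0.0114 to 0.106), and with 1 array left out only without CtrlGFP replicate 3 or Fezf2GFP replicate 3 (0.0652 to 0.0917 otherwise).

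Corticothalamic and deep-layer genes had a median of 1.01, and all 13 tested members had fold changes above 0, of which 2 passed. Wnt7b, a Wnt ligand of deep layers, stood at 8.86, 9.22, 9.37 and 8.95 in the controls and at 11.23, 10.85, 10.92 and 11.54 with Fezf2GFP (2.04, SE 0.22, limma adjusted p = 0.000332). Lmo3, a LIM-domain transcriptional cofactor, stood at 8.61, 7.66, 7.70 and 6.87 and at 10.43, 10.01, 10.02 and 10.20 (2.45, SE 0.29, adjusted p = 0.000481). Both were clear of overlap. The mean level of the 13 genes ranged from 8.67 to 10.08 over the control arrays and from 10.39 to 11.03 over the Fezf2GFP arrays.

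Callosal and upper-layer genes did not shift together. Of 21 tested, 2 were higher and 0 lower, 13 values were above 0 and 8 below, and the median was 0.08. The rises were in Inhba, a subunit of activins (5.20 to 5.65 in the controls, 7.92, 6.57, 6.65 and 6.50 with Fezf2GFP, log2 fold change 1.59, SE 0.28, limma adjusted p = 0.00859), and in Dkk3, a secreted glycoprotein (1.71, SE 0.35, adjusted p = 0.0191). Cux1, the relative of Cux2 and chosen after its values were seen, stood at 12.07, 11.12, 10.53 and 13.04 and at 10.17, 9.82, 10.49 and 8.64. Its arrays did not overlap, by a narrow margin, and the value of -1.91 (SE 0.48) had an adjusted p of 0.0523. Dkk3 passed in 17 of 20 alternative fits (adjusted p from 0.00575 to 0.0845) and not without CtrlGFP replicate 4 or Fezf2GFP replicate 4 (0.0551 to 0.0586). Inhba no longer passed in the fit of the 8 arrays at 48 h alone (0.0512, over 0.00338 to 0.0512). Cux1 passed in 4 of 20 (0.0112 to 0.184), among them the fit without CtrlGFP replicate 3 (0.0245).

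Among progenitor genes, a few of the radial glia list rose. Of 23 tested, 3 were higher and 1 lower, 17 values were above 0 and the median was 0.45. Nes, the filament protein nestin, stood at 8.26, 8.90, 8.61 and 8.09 in the controls and at 9.61, 9.95, 9.58 and 9.92 with Fezf2GFP (1.30, SE 0.21, limma adjusted p = 0.00472). The arrays were clear of overlap, and the value no longer passed with the mean of the probe sets of each gene (1.00, adjusted p = 0.124, over a range of 0.000333 to 0.124 in 20 fits). Ddah1, which breaks down methylated arginine, rose by 0.80 (SE 0.20, adjusted p = 0.0448), and Aldoc, a glycolytic enzyme, by 0.74 (SE 0.18, adjusted p = 0.0422). Hopx, a homeodomain protein of outer radial glia chosen after its values were seen, stood at 7.48, 8.28, 8.82 and 6.51 and at 4.11, 6.69, 5.15 and 6.01. Its groups overlapped, and its fall of 2.28 on the log2 scale (SE 0.57) had an adjusted p of 0.0482. Hopx passed in 5 of 20 alternative fits (0.0307 to 0.15), and with 1 array left out only without CtrlGFP replicate 4 or Fezf2GFP replicate 2 (0.0716 to 0.127 otherwise). Aldoc passed in 10 of 20 (0.00791 to 0.125), with 1 array left out only without CtrlGFP replicate 2 or Fezf2GFP replicate 3 (0.0803 to 0.121 otherwise). Ddah1 passed in 8 of 20 (0.00662 to 0.164), with 1 array left out only without CtrlGFP replicate 3 or Fezf2GFP replicate 1 (0.0529 to 0.125 otherwise).

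Radial glia partly share markers with astrocytes. Of 7 tested astrocyte markers, 1 passed as higher, 6 had values above 0 and the median was 1.06, while 3 of the 10 fixed markers lay below the dim level. Aldh1l1, a folate enzyme used as an astrocyte marker, stood at 8.23, 8.98, 8.59 and 8.14 and at 9.98, 9.80, 9.76 and 10.03 (1.41, SE 0.23, limma adjusted p = 0.00507). The mean level of the 7 markers ranged from 7.52 to 7.88 in the controls and from 8.25 to 9.20 with Fezf2GFP, and its part in the radial glia values was not tested.

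Few genes of intermediate progenitors and of cell division passed, and most of their values were below 0, where 57.3% of all genes were above. Of 17 tested intermediate progenitor genes 0 were higher and 1 lower, with 12 values below 0 and a median of -0.07. The one that fell was Gadd45g, at 11.37, 12.31, 11.91 and 11.56 in the controls and at 10.21, 9.93, 9.84 and 10.91 with Fezf2GFP. Of 32 tested cell division genes 0 passed in limma (1 at an unadjusted p under 0.05), with 26 values below 0, a median of -0.19, and Cenpa, a centromere histone, at -0.67 (adjusted p = 0.202) and Cdc20, an activator of the anaphase-promoting complex, at -0.44 (0.334). Newborn excitatory neuron genes had a median of 0.20, and of 21 tested 0 passed (5 at an unadjusted p under 0.05, where 15.2% of all genes were). Nrcam, an adhesion molecule, had a value of 0.58 (adjusted p = 0.0944) and Neurod1, a proneural transcription factor, one of 0.48 (0.21).

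Axon guidance genes contributed changes in both directions. Of 14 tested ephrins and Eph receptors, 3 were higher and 0 lower, with a median of 0.30. Beside Ephb1 these were the ligands Efnb3, at 9.74, 9.02, 9.82 and 9.48 in the controls and 10.33, 10.47, 10.91 and 10.71 with Fezf2GFP (1.09, SE 0.25, limma adjusted p = 0.0336), and Efna3, at 8.03, 8.39, 8.03 and 7.81 and at 8.65, 9.04, 9.44 and 8.76 (0.91, SE 0.21, adjusted p = 0.0324). Neither ligand overlapped between the vectors. Efnb3 passed in 11 of 20 alternative fits (adjusted p from 0.0171 to 0.0907) and not without CtrlGFP replicate 2 or 4 or Fezf2GFP replicate 2, 3 or 4 (0.0632 to 0.0907). Efna3 passed in 10 of 20 (0.0115 to 0.103) and not without CtrlGFP replicate 1, 3 or 4 or Fezf2GFP replicate 2 or 3 (0.0661 to 0.103).

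Of 23 tested semaphorins, plexins and neuropilins, 4 were higher and 1 lower, with a median of 0.28. The receptors Nrp2 and Plxnb2 rose, the latter from 9.69, 10.30, 10.07 and 10.16 to 11.23, 10.87, 10.81 and 11.04 (0.93, SE 0.17, limma adjusted p = 0.00943). Among the ligands, Sema5b rose by 0.80 (SE 0.17, adjusted p = 0.0233), and Sema4g (1.20, SE 0.29, adjusted p = 0.0435) and Sema4d (-0.84, SE 0.20, adjusted p = 0.0396), both chosen after their values were seen, moved in opposite directions. Nrp1, the other neuropilin, a receptor of the same ligand class and chosen after its values were seen, had a value of -0.22 (adjusted p = 0.57). With 1 array left out, Sema5b passed only without CtrlGFP replicate 3 or Fezf2GFP replicate 3 (0.0516 to 0.0716 otherwise), Sema4g only without Fezf2GFP replicate 1 (0.0731 to 0.125 otherwise) and Sema4d only without CtrlGFP replicate 2 or Fezf2GFP replicate 2 (0.0527 to 0.115 otherwise). Over 20 alternative fits these 3 genes passed in 9 (0.00445 to 0.251), 8 (0.0109 to 0.125) and 8 (0.0218 to 0.119).

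Slits, Robos, netrin receptors and other guidance genes numbered 18, of which 5 were higher and 1, Flrt3, lower, with a median of 0.48. Flrt2, the close relative of Flrt3, moved the other way: it stood at 11.28, 10.89, 11.17 and 11.19 in the controls and at 13.08, 12.66, 13.69 and 12.86 with Fezf2GFP (1.94, SE 0.26, limma adjusted p = 0.00109). All 3 of its measured probe sets passed as higher. Draxin, a secreted repellent of axons that binds the netrin receptor Dcc, stood at 10.21, 10.23, 10.19 and 10.82 and at 11.26, 11.65, 11.55 and 11.82 (1.21, SE 0.18, adjusted p = 0.00267). Neither overlapped. The 3 further members were chosen after their values were seen: Ntn4, of the netrin family, rose by 1.09 (SE 0.21), Unc5b, a netrin receptor that also binds Flrt proteins, by 0.81 (SE 0.15) and Robo1, a receptor of Slit proteins, by 1.03 (SE 0.24, adjusted p = 0.0326). Ntn4 no longer passed in the fit of the 8 arrays at 48 h alone (0.0711, over 0.00104 to 0.0711 in 20 fits). Robo1 passed in 11 of 20 alternative fits (adjusted p from 0.0207 to 0.124), and with 1 array left out only without CtrlGFP replicate 1 or Fezf2GFP replicate 1 (0.0632 to 0.0994 otherwise).

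Adhesion molecules gave more rises than falls, as did all genes tested (2.7% higher and 0.427% lower). Of 26 tested cadherins, contactins and related genes, 6 were higher and 1 lower, 21 values were above 0 and the median was 0.37. Pcdh17, a protocadherin of axons and synapses, stood at 8.55, 9.33, 9.19 and 8.70 in the controls and at 11.27, 11.38, 11.72 and 11.70 with Fezf2GFP (2.57, SE 0.19, limma adjusted p = 9.75e-06). Pcdh20 rose by 1.87 (SE 0.28) and Pcdh9 by 1.75 (SE 0.27), both without overlap. Of genes chosen after their values were seen, Pcdh19 rose by 1.98 (SE 0.40) and the contactin Cntn3 by 1.75 (SE 0.38), whereas Pcdh8, a protocadherin induced by activity, stood at 12.84, 12.64, 12.53 and 12.85 and at 11.46, 11.91, 11.92 and 11.85 (-0.93, SE 0.18, adjusted p = 0.0158). Cntn3 was below the dim level on 2 control arrays, so that its fitted value is not a measured fold. Over all 22 tested genes with the symbol prefix Pcdh, a set chosen after its values were seen, 4 were higher and 1 lower, with a median of 0.20. Pcdh19 no longer passed without CtrlGFP replicate 4 or Fezf2GFP replicate 3 (0.0526 to 0.0586, over 0.00214 to 0.0801 in 20 fits), nor Pcdh8 without CtrlGFP replicate 4 (0.0544, over 0.00844 to 0.0856). Cntn3 passed in 10 of 20 (0.00693 to 0.129) and not without CtrlGFP replicate 2, 3 or 4 or Fezf2GFP replicate 2 or 4 (0.0586 to 0.087).

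Of the Cntnap family, neurexin-related adhesion molecules chosen after their values were seen, 3 members were tested. All were higher, where 2.7% of all genes were. Cntnap5a was below the dim level on every array but those of Fezf2GFP at 48 h. It entered the test through these arrays alone, so the count is no result about the family. Cntnap2 stood at 11.21, 10.89, 11.16 and 10.27 and at 11.96, 12.23, 12.18 and 12.16 (1.25, SE 0.22, limma adjusted p = 0.00876), Cntnap4 rose by 1.97 (SE 0.35, adjusted p = 0.00876), and Cntnap5a, dim on all control arrays (2.92 to 3.20), by at least 1.45-fold (adjusted p = 0.0007). Cntnap2 and Cntnap4 were higher without overlap between the vectors, as 7.35% of all genes tested were. For Cntnap5a the lack of overlap follows largely from the filter and adds nothing. Cntnap4 had 2 control arrays below the dim level and no longer passed in the fit of the 8 arrays at 48 h alone (0.0637, over 0.00322 to 0.0637 in 19 fits).

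Genes of glutamate synapses lay above the level of all genes. Of 20 tested, 2 were higher and 0 lower, 18 values were above 0 and the median was 0.89. Both that passed, Shisa6 and Shisa9, encode partners of AMPA receptors, and Shisa9 stood at 8.41, 7.43, 7.58 and 7.39 in the controls and at 9.66, 9.24, 9.15 and 8.75 with Fezf2GFP (1.50, SE 0.34, limma adjusted p = 0.0317). The receptor subunits Grik5 (1.56, adjusted p = 0.0542) and Gria3 (0.89, adjusted p = 0.0728), chosen after their values were seen, did not pass. Other synaptic genes chosen in that way were Cplx2, a regulator of vesicle release, which rose from 8.25, 9.18, 8.74 and 8.24 to 10.54, 10.02, 10.40 and 10.51 (1.76, SE 0.21, adjusted p = 0.000481), the postsynaptic adhesion molecules Lrrtm4 (1.71, SE 0.33) and Lrrtm2 (0.83, SE 0.20), and the scaffold Shank3, which stood at 4.28, 3.57, 3.57 and 3.88 and at 4.46, 5.38, 5.91 and 5.04. Shank3 was below the dim level on 3 control arrays, so that its fitted value of 1.37 (SE 0.30) is not a measured fold. Shisa9, Lrrtm2 and Shank3 passed in 11 of 20, 7 of 20 and 9 of 19 alternative fits (adjusted p from 0.00352 to 0.101, 0.0164 to 0.159 and 0.00977 to 0.0845). With 1 array left out, Shisa9 passed only without CtrlGFP replicate 1 or Fezf2GFP replicate 4 (0.0656 to 0.101 otherwise), Lrrtm2 only without CtrlGFP replicate 1 or Fezf2GFP replicate 2 (0.073 to 0.118 otherwise) and Shank3 only without CtrlGFP replicate 1 or Fezf2GFP replicate 1 (0.0552 to 0.0756 otherwise).

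Ion channel genes numbered 33, with 4 higher and 0 lower, 26 values above 0 and a median of 0.37. Kcnc2, a fast potassium channel, stood at 8.42, 7.56, 7.69 and 8.17 in the controls and at 9.59, 9.06, 9.60 and 9.40 with Fezf2GFP (1.45, SE 0.29, limma adjusted p = 0.0167). The other rises were below a log2 fold change of 1: Kcnip1, a potassium channel partner (a fitted value of 0.87, SE 0.19, with the controls at 3.93 to 4.01 and 3 of them below the dim level), Cacnb1, a calcium channel subunit (0.69, SE 0.15), and Kcnq3, a potassium channel chosen after its values were seen (0.84, SE 0.20). Of 9 anion and bicarbonate transporters Slc26a7 alone passed, and 8 values were above 0. Slc4a10, a bicarbonate transporter chosen after its values were seen, stood at 8.36, 6.66, 7.73 and 7.97 and at 9.74, 9.63, 10.11 and 10.87, without overlap (2.41, SE 0.62, adjusted p = 0.0558). Of 11 Rgs genes Rgs8 alone passed, with 7 values above 0 and a median of 0.54. Kcnc2 no longer passed without CtrlGFP replicate 3 (0.054, over 0.00465 to 0.054 in 20 fits). Cacnb1 ended without CtrlGFP replicate 3 or 4 or Fezf2GFP replicate 1, 2 or 3 (0.0536 to 0.0733, over 0.00624 to 0.0973), Kcnip1 without CtrlGFP replicate 1, 3 or 4 or Fezf2GFP replicate 1 or 4 (0.0512 to 0.0733, over 0.0224 to 0.089), and Kcnq3 held with 1 array left out only without CtrlGFP replicate 1 or 2 (0.055 to 0.107 otherwise, over 0.00293 to 0.108). Slc4a10 passed in 4 of 20 fits (0.00756 to 0.156), among them none with a single 48 h array left out.

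**Figure D4:**
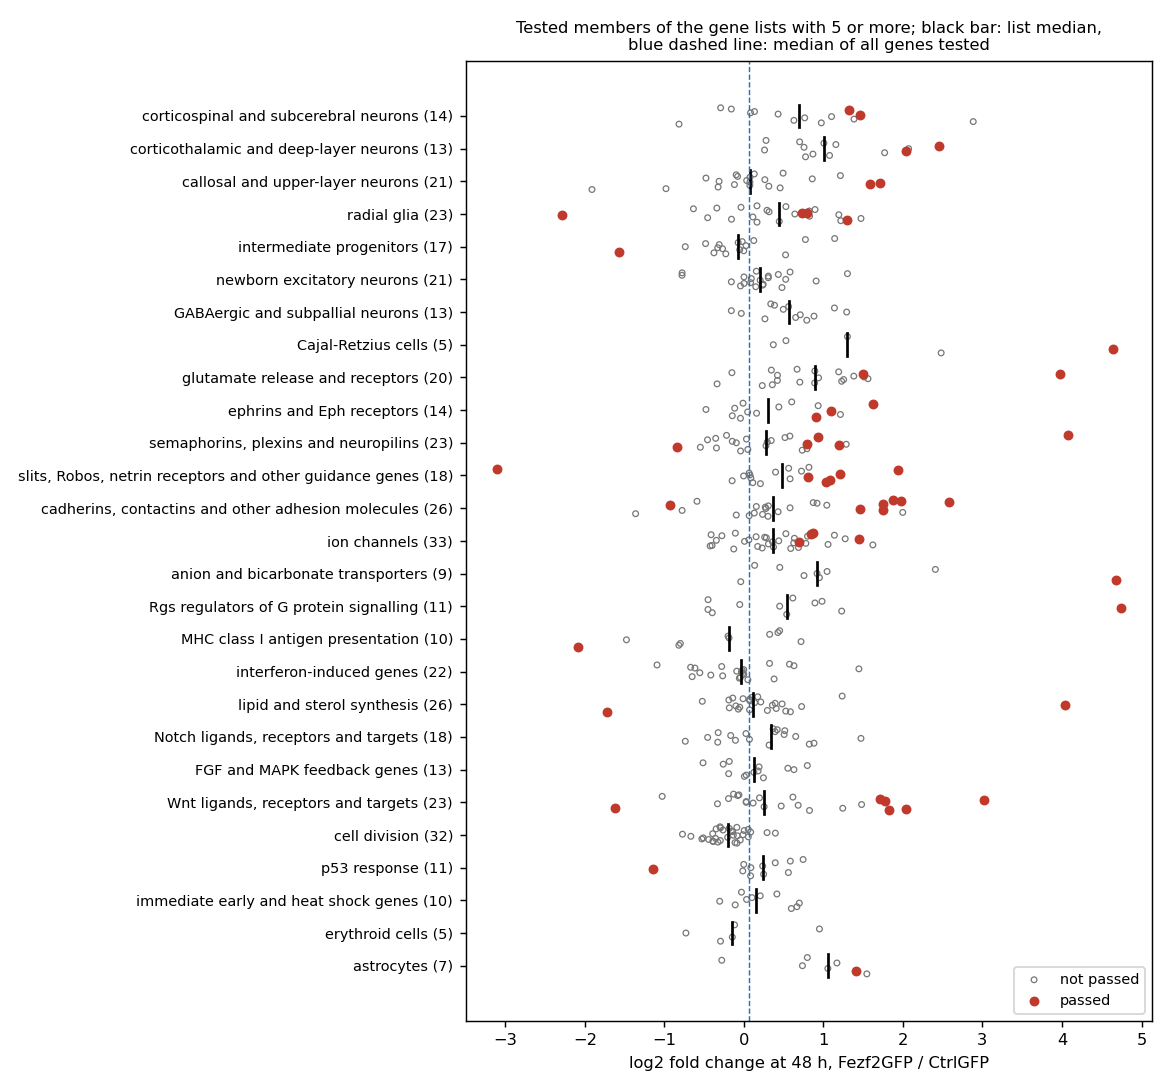
Log2 fold change at 48 h of each tested member of the gene lists with 5 or more tested members (number in brackets); red points passed, open points did not, black bars are list medians and the dashed line is the median of all genes (0.063). Rises among guidance, adhesion and Wnt genes reach 4.07 (Nrp2), and the cell division members lie close to 0.

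Wnt genes changed at several levels of the pathway. Of 23 tested, 5 were higher and 1 lower, with a median of 0.25. The ligands Wnt7b and Wnt7a rose, the latter, chosen after its values were seen, from 5.88 to 7.69 in the controls to 8.34 to 9.12 with Fezf2GFP (1.83, SE 0.35, limma adjusted p = 0.0119). Wnt7a no longer passed with the mean of its probe sets (0.83, adjusted p = 0.054) or in the fit of the 8 arrays at 48 h alone (0.0682), over 0.00482 to 0.0682 in 20 fits. A further probe set of Wnt7a had a value of -0.17 and did not pass (adjusted p = 0.795). Secreted modulators rose too: Sfrp2, which binds Wnt ligands, from 7.76, 7.26, 7.74 and 7.49 to 9.17, 8.76, 10.03 and 9.38 (1.77, SE 0.23, adjusted p = 0.000923), Dkk3 as above, and Dkk2, chosen after its values were seen, from 4.04, 5.52, 4.05 and 4.05 to 7.35, 6.40, 8.15 and 7.86 (3.02, SE 0.52, adjusted p = 0.00651). The receptor Fzd1 fell, from 10.09, 10.11, 10.86 and 10.74 to 8.28, 8.81, 8.84 and 9.36. All of these were without overlap. Axin2, a common target of the pathway and also chosen after its values were seen, had a value of -0.19 (adjusted p = 0.63).

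Of the Notch list (18 tested, median 0.34) and the FGF and MAPK feedback list (13 tested, median 0.13), 0 members passed in limma, with 7 and 0 at an unadjusted p under 0.05. Of all genes, 15.2% were under that level. Dll3, a Notch ligand of intermediate progenitors, had a value of -0.74 (adjusted p = 0.0926), and Numb, an inhibitor of Notch, one of 0.39 (0.101). Etv5 and Fgfbp3, of the FGF list, had values of 0.63 (0.347) and -0.51 (0.351). Of 11 p53 response genes Sesn1, which restrains growth signalling, alone passed. It stood at 13.62, 13.60, 13.58 and 13.52 in the controls and at 12.71, 12.40, 12.42 and 12.20 with Fezf2GFP, tight groups without overlap (-1.15, SE 0.15, adjusted p = 0.000798). Of 10 immediate early and heat shock genes 0 passed (2 at an unadjusted p under 0.05), with Ier2 at 0.70 (0.166) and Hsph1 at 0.42 (0.278).

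Class I antigen presentation held 1 large fall. B2m, the light chain shared by class I molecules, stood at 11.85, 14.03, 13.40 and 12.75 in the controls and at 10.41, 11.10, 10.86 and 11.34 with Fezf2GFP (-2.08, SE 0.41, limma adjusted p = 0.0156), and its other measured probe set passed in the same direction. The lowest control lay above the highest Fezf2GFP array, and the controls spread over more than the Fezf2GFP arrays did. The heavy chains H2-K1 (-0.82, adjusted p = 0.409) and H2-D1 (-0.80, adjusted p = 0.413), chosen after their values were seen, overlapped: H2-K1 stood at 9.42, 11.26, 11.34 and 11.27 and at 10.74, 9.80, 9.87 and 9.62, with replicate 1 apart from the other 3 in both groups. Of the 10 tested genes of the list 1 passed, 4 values were above 0 and 6 below, and the median was -0.19. At an unadjusted p under 0.05 in limma were 3 of them, 2 higher and 1 lower. Of 22 interferon-induced genes 0 passed in limma (2 at an unadjusted p under 0.05), the median was -0.04, and Irgm1 and Ifih1 had values of -1.09 (0.178) and 1.45 (0.191). B2m no longer passed in the fit of the 8 arrays at 48 h alone (0.0584, over 0.00301 to 0.0584 in 20 fits).

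Lipid and sterol genes stayed near the level of all genes apart from Elovl7 and Srebf1. Of 26 tested, 1 rose and 1 fell, with a median of 0.12. Srebf1, a master transcription factor of fatty acid synthesis, stood at 9.75, 10.10, 10.27 and 9.29 in the controls and at 8.49, 8.43, 8.07 and 7.55 with Fezf2GFP (-1.72, SE 0.25, limma adjusted p = 0.00197).

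Some genes of cilia, a group noticed only after its values were seen and given no test, rose. Under 6 families of symbols (intraflagellar transport, Bardet-Biedl, tectonic, tektin, axonemal dynein, and cilia and flagella associated), 38 genes were tested. Of these, 6 rose (15.8%, against 2.7% of all genes), 0 fell and 31 had values above 0 (57.3% of all genes did), with a median of 0.35. Each family holds 1 of these rises, and the families were chosen with the calls known. The shares therefore do not show that genes of cilia rise more often. Tekt1, a tektin of motile cilia, stood at 3.63, 5.84, 4.42 and 3.38 in the controls and at 7.75, 7.03, 7.10 and 7.35 with Fezf2GFP (2.99, SE 0.42, limma adjusted p = 0.00178). With 2 control arrays below the dim level, its fitted value is not a measured fold. Cfap69 lay between 4.30 and 4.87 in the controls and at or above 6.27 with Fezf2GFP (2.36, SE 0.36, adjusted p = 0.00347). Neither overlapped between the vectors. The others were Tctn2, of the ciliary transition zone (1.50, SE 0.25), Bbs1, which moves receptors in cilia (1.24, SE 0.30), Ift172, of intraflagellar transport (1.12, SE 0.26), and Dnal1, a dynein light chain (0.94, SE 0.14). Ift172 and Bbs1 passed in 9 of 20 alternative fits each (adjusted p from 0.0257 to 0.0902 and from 0.0122 to 0.119). With 1 array left out, Ift172 passed only without Fezf2GFP replicate 2 (0.0536 to 0.0757 otherwise) and Bbs1 only without CtrlGFP replicate 1 (0.0771 to 0.119 otherwise).

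Markers of other cells that the sort could hold were mostly dim. Below the dim level lay 10 of 12 microglia, 9 of 12 endothelial, 7 of 9 pericyte, 9 of 10 meningeal, 7 of 10 choroid plexus and 4 of 9 erythroid markers found on the array. Of those tested, 0 passed in limma among microglia (2 tested), endothelium (3), pericytes (2), choroid plexus (3) and erythroid cells (5), with 0 at an unadjusted p under 0.05 in the first 4 and 1 in the last. Ogn, a matrix proteoglycan that meningeal cells make, was the one meningeal marker tested. It stood at 5.06, 4.52, 4.75 and 4.60 in the controls and at 7.52, 7.13, 6.35 and 6.98 with Fezf2GFP (2.27, SE 0.29, limma adjusted p = 0.000798). Clic6, of choroid plexus, stood between 4.14 and 4.26 on all 8 arrays, and Ctss, of microglia, between 6.31 and 8.85 in the controls and between 6.54 and 8.79 with Fezf2GFP, fully overlapping. Other markers that did not pass had larger values: in pericytes Rgs5 was at 1.23 (adjusted p = 0.393) and Pdgfrb at 1.02 (0.513), with a list median of 1.12, in endothelium Cldn5 was at 1.00 (0.454) and in erythroid cells Slc4a1 at 0.95 (0.225). All 4 overlapped between the vectors, and Pdgfrb stood at 7.88, 9.27, 8.16 and 7.57 and at 8.65, 9.47, 9.88 and 8.95. The part of these cells in other results was not tested.

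Markers of GABAergic neurons, Cajal-Retzius cells and oligodendrocyte precursors gave mixed values. Of 13 tested GABAergic and subpallial genes 0 passed (1 at an unadjusted p under 0.05) and 11 were above 0, with a median of 0.56. Their mean level ranged from 4.74 to 7.18 over the controls and from 5.95 to 6.88 over the Fezf2GFP arrays. Lhx6, a transcription factor of interneurons, had a value of 1.29 (limma adjusted p = 0.239) and Maf one of 1.14 (0.548). Of 5 tested Cajal-Retzius genes Calb2 alone passed and all were above 0. Reln, the secreted glycoprotein reelin that those cells are known for, was chosen after its values were seen and stood at 9.80, 6.70, 9.13 and 8.37 in the controls and at 10.72, 10.95, 10.70 and 11.56 with Fezf2GFP, without overlap (2.48, SE 0.62, adjusted p = 0.0508). The mean level of the 5 genes, Calb2 included, ranged from 4.46 to 6.05 and from 6.25 to 7.73, and 5 of the 10 fixed markers lay below the dim level. Its part in the rise of Calb2 was not tested. Reln passed in 6 of 20 alternative fits (0.0146 to 0.14), among them the one without CtrlGFP replicate 1 (0.0285).

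Of the oligodendrocyte precursor markers 3 were tested, and 6 lay below the dim level. Mbp, a myelin protein, rose from 6.87, 6.98, 6.84 and 6.08 to 7.51, 7.52, 7.88 and 7.90 (1.01, SE 0.21, limma adjusted p = 0.0221). The lineage transcription factors Olig1 (-1.46, adjusted p = 0.316) and Olig2 (-1.40, adjusted p = 0.0799), chosen after their values were seen, did not pass and pointed the other way. Olig2 stood at 6.77, 6.97, 5.67 and 6.68 in the controls and at 4.95, 5.45, 5.06 and 5.05 with Fezf2GFP, without overlap. Mbp passed in 15 of 20 alternative fits (0.0116 to 0.159) and not without Fezf2GFP replicate 3 or 4 (0.0597 to 0.0688). Olig2 passed without CtrlGFP replicate 3 (0.047, over 0.0388 to 0.213).

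The same comparison at 24 h used other arrays (3 per vector), so the times share no sample. There 109 genes passed (1.06%), 83 higher (0.806%) and 26 lower (0.253%). Of the 278 rises at 48 h, 42 had also passed as rises at 24 h, which are 15.1% of the 48 h rises and 50.6% of the 24 h rises. Of the 44 falls, 9 had, which are 20.5% of the 48 h falls and 34.6% of the 24 h falls. No gene passed in opposite directions. Of the 48 h rises 259 had a positive value at 24 h and of the falls 39 a negative one, where 56.4% of all genes were above 0. The median 24 h value was 0.60 for the rises and -0.68 for the falls.

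Parm1 and Rgs8 were higher at both times, at 2.32 (limma adjusted p = 0.00744) and 2.66 (0.00414) at 24 h against 5.09 and 4.74 at 48 h. Slc26a7 (6.48 at 24 h), Caps2 (3.34), Pcdh17 (2.25) and Flrt2 (2.01) were also past the threshold at both, as were the falls of Rai2 (-2.78), Srebf1 (-2.70), Zfhx4 (-2.34) and Sesn1 (-1.23). Others that passed at 48 h lay near 0 at 24 h, among them B2m (-0.04, adjusted p = 0.983), Lmo3 (0.19, 0.863), Inhba (0.10, 0.933) and Sfrp2 (0.09, 0.919). Such a pair of values does not show a difference between times, which was tested by itself.

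That test, of the 48 h effect minus the 24 h effect, called 10 genes (0.0971%), 7 above and 3 below 0, and 5 of them had passed at 48 h. All 5 rose at 48 h. Hmgcll1, an enzyme of ketone body synthesis, differed by 1.95 (limma adjusted p = 0.0286), at 0.01 and 1.96, and Pappa2, a protease of growth factor binding proteins, by 1.88 (0.0159), at 0.07 and 1.94. Pappa2 stood at 4.87, 4.68, 4.88 and 4.78 in the 48 h controls and at 7.03, 6.46, 6.82 and 6.68 with Fezf2GFP, without overlap. Tmem117, Stac2, an adaptor of calcium channels, and Cdhr1 were below the dim level on every array but those of Fezf2GFP at 48 h, and entered the test through these arrays alone. They had no measured effect at 24 h, and at 48 h they were at least 4.46-fold, 1.96-fold and 2.27-fold higher. Lmo3 (adjusted p = 0.11), Parm1 (0.0761) and Calb2 (0.0997) did not pass this test. Without CtrlGFP replicate 3 the test called 0 genes (474 at an unadjusted p under 0.05, against 509 or 4.94% with all arrays), and without CtrlGFP replicate 4 it called 5.

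**Figure D5:**
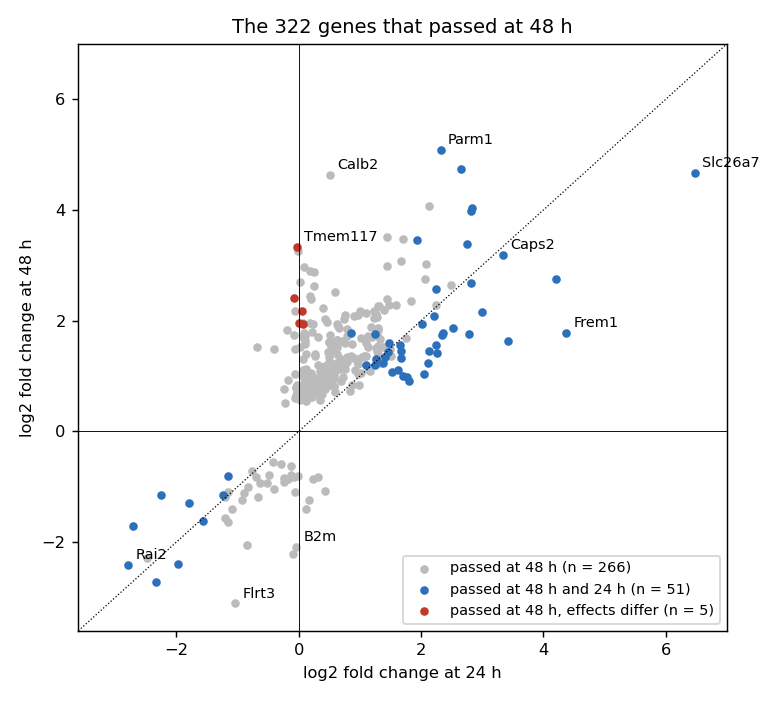
Log2 fold change at 48 h against that at 24 h (Fezf2GFP over CtrlGFP) for the 322 genes that passed at 48 h; blue points also passed at 24 h (51), red points passed the test of the difference between times (5), and the dotted line marks equal values. Most points lie in the quadrants of equal sign, and Calb2, Tmem117 and B2m lie near 0 on the 24 h axis.

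Further probe sets of the same genes gave mostly the same direction. Of the 322 genes, 108 had 145 further probe sets above the dim level, of which 137 had the same sign (94.5%, against 62.8% over all tested genes), 41 passed in the same direction and 0 passed in the opposite one. When all 17407 probe sets were tested, 358 passed (2.06%), 304 higher and 54 lower, from 315 symbols. Without CtrlGFP replicate 4 that count was 195, and without Fezf2GFP replicate 4 it was 211.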

How the data were processed

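Cells electroporated at E14.5 were sorted 24 h or 48 h later. In vitro transcription, in 2 consecutive rounds per the labels' protocols, amplified the RNA for hybridisation. The deposited values are on a log2 scale, 1 value per probe set and array, made with GCRMA per the submitters' processing notes, which corrects background, normalizes between arrays and sums probes; no version or setting of it is named in the sources used here, and spiked control probe sets were not analysed here. Arrays have no read depth, so that the number of arrays limits the precision.

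Gene symbols came from the platform annotation: 34945 probe sets had 1 symbol, 932 several and 9160 none, and the latter 2 kinds were left out. Of the tested symbols, 10268 matched the RefSeq gene table, which also gave gene spans. limma 3.58.1 in R 4.3.3 fitted the means of the 4 groups over all 14 arrays, with empirical Bayes variances, and gave 3 comparisons: the vectors at 48 h, the vectors at 24 h, and the difference between these effects. P-values were adjusted by the Benjamini-Hochberg method over 10295 genes. For genes dim on every control array, folds are lower bounds against the dim level.

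On data simulated from the group means and spreads for the 48 h comparison, with 200 of 10295 genes changed, the fit recovered 49.0% at a true log2 change of 1 and 93.0% at 2, with 11 false calls among 153.

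The genes named were 12 chosen as subtype markers, 15 rises and 12 falls (largest first, without overlap), up to 3 passing members of each of 33 gene lists with the smallest p (or 2 members where none passed), 8 genes below the dim level on all control and above it on all Fezf2GFP arrays, and the 8 genes with the smallest p for the difference between times. The members, lists and rules were chosen with earlier results of these data known. The 20 alternatives changed the filter on dim probe sets, normalization, summary per gene, arrays, weights, variance model, replicate block or gene span, or left out 1 array at 48 h.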

Additional observations from a re-analysis of the deposited data

Results flagged for a closer look

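In 31 of 272 groups of 4 arrays (11.4%), 1 array lay so far from the other 3 that Dixon's criterion at 95% was passed, where chance alone marks about 1 in 20. The log2 level of the array that stood apart is given here with the range of the other 3 arrays of its vector. On CtrlGFP replicate 1 this concerned Ephb1 at 10.10 against 9.10 to 9.17, Inhba at 5.65 against 5.20 to 5.22, H2-K1 at 9.42 against 11.26 to 11.34 and H2-D1 at 10.04 against 11.74 to 11.89. On CtrlGFP replicate 2 this concerned Tmem117 at 2.95 against 2.76 to 2.79, Pdzrn3 at 12.12 against 13.14 to 13.25, Msx1 at 4.58 against 3.69 to 3.73, Hpgd at 3.36 against 3.21 to 3.23, Dkk2 at 5.52 against 4.04 to 4.05 and Cntnap5a at 3.20 against 2.92 to 2.97. On CtrlGFP replicate 3 this concerned Tshz2 at 3.81 against 3.17 to 3.27 and Esam at 5.07 against 4.70 to 4.75. On CtrlGFP replicate 4 this concerned S1pr3 at 4.54 against 6.67 or higher, Draxin at 10.82 against 10.19 to 10.23, Mbp at 6.08 against 6.84 to 6.98, Gsg1l at 3.25 against 3.92 to 3.92 and Afap1l2 at 3.24 against 3.49 to 3.53. On Fezf2GFP replicate 1 this concerned S1pr3 at 8.70 against 9.52 to 9.60, Sncaip at 7.57 against 8.24 to 8.29, Inhba at 7.92 against 6.50 to 6.65 and Pcdh8 at 11.46 against 11.85 to 11.92. On Fezf2GFP replicate 2 this concerned Rgs8 at 9.82 against 10.50 to 10.56, Msx1 at 4.18 against 3.71 to 3.73 and Cdhr1 at 5.84 against 4.91 to 5.04. On Fezf2GFP replicate 3 this concerned Gad1 at 9.55 against 8.49 to 8.62 and Sema5b at 9.15 against 9.74 to 9.83. On Fezf2GFP replicate 4 this concerned Nrcam at 11.53 against 10.99 to 11.08, Neurod1 at 13.96 against 13.31 to 13.40, Cacnb1 at 7.68 against 8.14 to 8.24, Cpxm2 at 5.10 against 4.21 to 4.22 and Bcl6 at 7.89 against 8.71 to 8.85. Of genes in this set whose call ends when 1 array is left out, Ephb1, Sncaip, Sema5b, Cacnb1, Mbp, Hpgd, Afap1l2 and Pcdh8 are given with those values in the results.

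The effect of the vector differed between 48 h and 24 h for 8 named genes, by limma's test of the difference with Benjamini-Hochberg adjustment. The log2 difference, 48 h effect minus 24 h effect, was 3.36 for Tmem117, 2.49 for Stac2, 2.12 for Cdhr1, 1.95 for Hmgcll1 and 1.88 for Pappa2. The values of Tmem117, Stac2 and Cdhr1 are fitted values and no measured differences, since these genes were below the dim level on all arrays of 3 of the 4 groups and were tested through the Fezf2GFP arrays at 48 h alone. It was -3.02 for Cpxm2, -2.73 for Col9a1 and -1.57 for Trim5. Cpxm2, of a family of carboxypeptidases, had a value of 3.98 at 24 h and of 0.96 at 48 h (adjusted p = 8.08e-05 and 0.089). Col9a1, a collagen chain, had 2.40 and -0.34, and Trim5 had 1.52 and -0.05, with all 48 h arrays and all 24 h control arrays of Trim5, and all 48 h control arrays of Cpxm2, below the dim level, so that their values are fitted values too. Without CtrlGFP replicate 3 none of the 10 genes called in this test passed (474 genes at an unadjusted p under 0.05).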

How the results depend on the processing

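With 4 arrays per vector the precision is limited by their number, and values near the dim level have no firm order. Of 90 named genes that passed at 48 h, 51 passed in every alternative in which they were tested and 65 in at least 15, and 0 changed direction. Of 46 named genes that did not pass, 13 passed in at least 1 alternative. The count of 322 genes at 48 h was 168 with only the 8 arrays at 48 h, 550 with array weights and 211 with a replicate block, and 188 to 304 when 1 array was left out. It lay between 246 and 372 without a filter on dim probe sets, at a dim level of 6, with quantile normalization, median centring, the mean of the probe sets of a gene, every probe set tested, a variance trend with robust estimation, the span trend removed, or without the control arrays with the highest medians. The 109 genes at 24 h became 2030 with array weights and 98 to 165 with 1 array of the 48 h groups left out (165 without CtrlGFP replicate 2). The 10 genes of the difference between times became 4 at a dim level of 6, 16 with every probe set tested, 240 with array weights, 0 with a replicate block (547 at an unadjusted p under 0.05 in limma) and 0 to 12 with 1 array left out. The 358 probe sets became 160 with only the 8 arrays at 48 h, 225 with a replicate block and 195 to 321 with 1 array left out. The array weights, from 0.202 to 8.56, did not converge, and the cause of the other shifts was not tested. Over the gene lists, 548 of 660 counts stayed within 1.5 times the reported count and 112 did not.

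Whether same-numbered arrays form pairs is not stated in the labels. The deviations of same-numbered 48 h arrays correlated at -0.0558, 0.286, 0.0152 and 0.269 for numbers 1 to 4. Of the arrays, 2 of 4 control and 1 of 4 Fezf2GFP arrays correlated best with their own number. So few values can neither show nor exclude pairing. The block is given as an alternative, with 211 genes at 48 h and 0 for the difference between times.

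A change of sign was found in 6 named genes, none of which passed in the reported fit. Pax6 (0.17) was -0.26 with array weights, -0.29 without the control arrays with the highest medians and -0.29 to 0.40 with 1 array left out. C1qb (-0.31) was 0.12 with array weights, and Hba-a2 (-0.29) was 0.036 with the span trend removed. Ctss (0.28) ranged from -0.13 to 0.81 with 1 array left out. Msx1 (-0.10) was 0.22 with array weights, 0.054 with the span trend removed, 0.12 without the control arrays with the highest medians and -0.21 to 0.12 with 1 array left out. Clic6 (-0.01) was 0.016 with quantile normalization, 0.030 with median centring, 0.012 with array weights, 0.012 without the control arrays with the highest medians and -0.027 to 0.012 with 1 array left out.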
